A study of Mus musculus with 16 samples.

Results

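The nuclear genes for the subunits of the mitochondrial respiratory chain and of ATP synthase were described in cells of the mouse coronal suture. Genes were taken by their symbols, namely Nduf genes of the a, b, c, s and v series for complex I, Sdha to Sdhd for complex II, Uqcr genes for complex III, Cox4 to Cox8 genes for complex IV and Atp5 genes for complex V. Symbols of pseudogenes were dropped, which concerned 2 symbols, and each gene was read from its brightest probe set with a sole gene symbol. This gave 78 of the 22180 genes on the array, with 33 in complex I, 4 in complex II, 7 in complex III, 17 in complex IV and 17 in complex V. A further 8 symbols (Cox6c, Ndufb2, Ndufb4, Ndufb4b, Ndufb4c, Ndufs6, Ndufs6b and Uqcr10) shared their probe sets with other genes and were not analysed here.

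The study asked what thyroxine, the prohormone that the thyroid gland secretes, does to suture cells of Twist1+/- and wild-type mice. Twist1 encodes a transcription factor of mesenchymal cells, and loss of a copy causes early fusion of the coronal suture in mice. All mice were C57BL6, from 2 litters of mixed genotype, and the sources used here give neither their age nor the kind of Twist1 allele. Cells were kept apart by genotype and sex, which gave 4 cultures, Twist1+/- female, Twist1+/- male, wild-type female and wild-type male, so 1 culture stands for each genotype and sex. Each culture was kept with thyroxine, at a log10 molar concentration of -6, or in control medium with the same 10% fetal bovine serum, and RNA was taken at day 7 or day 3. The 8 groups were Twist1+/- with thyroxine, Twist1+/- control, wild type with thyroxine and wild-type control, each at both days, with 2 arrays per group (1 female and 1 male) and 16 arrays in all. Values are log2 expression after RMA, a procedure that corrects background, gives all arrays the same distribution and joins the probes of a probe set. Differences are therefore log2 differences, and a shift shared by all genes of a sample cannot be seen. Because probes differ in brightness, levels are compared between samples for the same gene and not between genes.

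The inner mitochondrial membrane holds complexes I to IV, which pass electrons from NADH and succinate to oxygen and, except for complex II, pump protons, and ATP synthase (complex V), which uses the proton gradient to make ATP. Most subunits are encoded in the nucleus and a few in mitochondrial DNA. The factors NRF1, GABPA (an ETS factor), YY1 and the oestrogen-related receptors, with the coactivators of the PGC-1 family, are known regulators of the nuclear genes. In rodent liver and muscle, thyroid hormone is known to raise transcripts of some respiratory chain subunits. Several complex IV subunits have paralogs that are restricted to certain tissues or conditions. Ndufa4, named as a complex I gene, is now known as a subunit of complex IV, and it and its paralog Ndufa4l2 are counted with complex I here because their symbols place them there.

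Twist1 averaged 7.14 ± 0.35 in Twist1+/- arrays and 6.82 ± 0.63 in wild-type arrays (SD, n = 8 arrays each), with ranges of 6.51 to 7.55 and 6.07 to 7.70. Whether its probe set lies in the part that the mutant allele lacks is not known, so this level does not check the labels. The 12 mesenchymal markers were all measured above the filter, at a mean level of 8.82 to 10.13 per array. They were lowest in the wild-type male culture (mean 8.91, against 9.82 to 10.03 in the other 3 cultures). All 14 markers of macrophages and osteoclasts were above the filter as well, at a mean of 7.38 to 9.0 per array, while 2 of 7 osteoblast markers and 6 of 10 skeletal muscle markers were. In such bulk RNA a smaller share of cells of a type and less RNA per cell cannot be told apart.

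Of the 78 genes, 72 passed the filter on dim genes (a mean of at least 3.905) and were tested together with the rest of the 13453 genes. The 6 others had means under the filter. Ndufs5 lay between 2.17 and 2.87, Cox7b2 between 1.72 and 2.29, Cox7c between 2.71 and 3.52, Cox8b between 3.10 and 3.70, Cox8c between 1.83 and 2.47 and Atp5j2 between 2.50 and 4.35. Cox7b2, Cox8b and Cox8c are isoforms known mainly from testis or muscle. Ndufs5 and Cox7c, by contrast, encode parts of complexes I and IV that most cells make, and a low value of a probe set does not show that a transcript was absent.

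The tested subunits varied little. Their median SD over the 16 arrays was 0.18, against 0.213 for all tested genes, and 61 of 72 (84.7%) had an SD under 0.25, against 65.6% of all tested genes. The sets were not matched for brightness, with which the spread can change, so this is not shown to be a trait of the subunits. Only Ndufa4l2 (SD 1.4, from 5.31 to 9.36) and Atp5d (SD 1.03, from 6.13 to 9.78) had an SD over 1. Cox6a2, Atp5g1, Cox6b2 and Ndufa11 followed with SDs of 0.45, 0.42, 0.41 and 0.35. Averaged over its tested genes, complex I ran from 7.352 to 7.631 across the arrays, complex II from 8.150 to 8.337, complex III from 7.574 to 7.941, complex IV from 7.567 to 8.005 and complex V from 8.009 to 8.296. Over all 72 genes, the Twist1+/- male control array of day 3 (7.644) and the Twist1+/- female thyroxine array of day 3 (7.669) were lowest, and the other 14 arrays lay between 7.752 and 7.850.

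No subunit passed the test for a thyroxine difference over the 8 pairs of a thyroxine and a control array of the same culture and day. At an adjusted p under 0.05 (limma with the pair as a block, Benjamini-Hochberg over 13453 genes) 0 of 72 passed, where 0.0966% of all tested genes did. At an unadjusted p under 0.05, 6 of 72 (8.33%) passed, against 6.13% of all tested genes. The median difference was -0.003, with 34 genes higher and 38 lower, and that of all tested genes was -0.016. By complex, the median was 0.02 in complex I (18 higher, 14 lower), -0.01 in complex II (1 higher, 3 lower), -0.03 in complex III (3 higher, 4 lower), -0.01 in complex IV (6 higher, 7 lower) and -0.01 in complex V (6 higher, 10 lower). The fit gave each genotype and day its own thyroxine effect. The standard errors therefore hold the spread between the female and male pairs of a condition, and not that of the effect between conditions. Their median was 0.07, and the 95% interval lay within 0.5 of 0 on either side for 71 of the 72. Ndufa4l2 counts among these 71 although its pair differences ran from -1.2 to 1.53. No subunit had the same sign in 8 of 8 pairs, where 0.721% of all tested genes had. Left out in turn, the Twist1+/- female pair of day 3 and the wild-type male pair of day 7 decided 2 calls and 1 call, since without the female pair Atp5d (0.69) and Ndufa11 (0.28) passed, both at an adjusted p of 0.0482, and without the male pair Atp5d (0.79, adjusted p 0.0216).

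**Figure D1:**
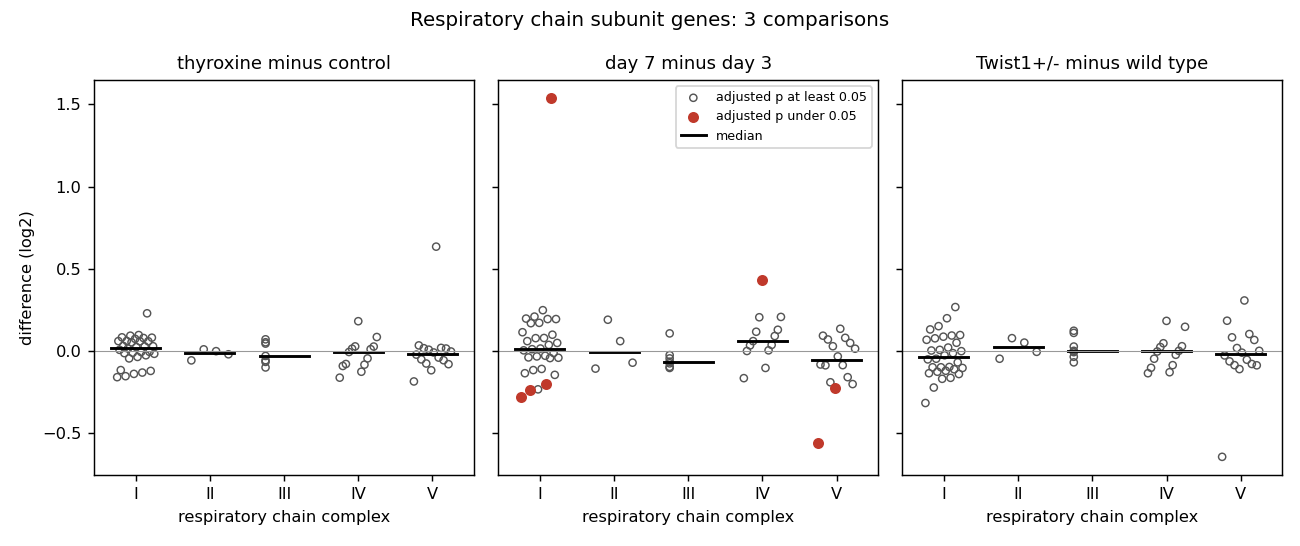
Log2 differences of the 72 tested subunits by complex (I to V on the x axis) for thyroxine minus control, day 7 minus day 3 and Twist1+/- minus wild type. Each point is a gene, filled where its adjusted p is under 0.05, and bars mark the complex medians. The medians lie near 0 in all 3 panels, between -0.06 and 0.06, and filled points appear for day alone (7 genes).

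Values of single subunits were small. In complex I, the smallest p in either direction belonged to Ndufa11, an accessory subunit of the membrane arm (0.23 ± 0.058 SE, adjusted p 0.385, higher in 7 of 8 pairs), Ndufa4 (0.08 ± 0.055, adjusted p 0.861), Ndufc2 (-0.13 ± 0.052, adjusted p 0.765) and Ndufa9 (-0.12 ± 0.048, adjusted p 0.765). In complex II, Sdhc, a membrane anchor, differed by 0.01, Sdha, the flavoprotein that oxidises succinate, by -0.06 and Sdhd, the other anchor, by -0.02. In complex III, the iron-sulfur protein gene Uqcrfs1 differed by 0.07, Uqcr11 by 0.05, Uqcrb by -0.10 and Uqcrh by -0.07. In complex IV, Cox4i2, a paralog of Cox4i1 known from lung and from low oxygen, differed by 0.18 ± 0.114 (adjusted p 0.849), Cox6a1 by 0.09, Cox7b by -0.16 ± 0.087 (adjusted p 0.829) and Cox5a by -0.09. In complex V, the central stalk gene Atp5c1 differed by 0.04 and Atp5mpl and Atp5e by -0.18 and -0.12. Complex V also held Atp5d, the delta subunit of the F1 stalk, at 0.64 ± 0.123 (adjusted p 0.103), with 4 pairs higher and 4 lower. Its 8 pair differences had an SD of 1.61.

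The pairs differed among themselves more than the averages show, and at day 3 both Twist1+/- pairs moved apart. The median thyroxine minus control difference was -0.16 in the Twist1+/- female pair of day 3 and 0.135 in the Twist1+/- male pair of that day, while the 6 other pairs had medians of -0.07 to 0.05. Complex IV moved furthest, with medians of -0.25 for the female cells and 0.44 for the male cells. Cox8a, a small subunit of complex IV, had 9.96 with thyroxine and 10.54 in control medium in the female pair, and 10.46 with thyroxine and 9.76 in control medium in the male pair. Ndufa3, an accessory subunit of complex I, had 9.91 and 10.24 (thyroxine, control) in the female pair and 10.33 and 9.60 in the male pair. Ndufc1 showed the same opposition, with 6.74 and 7.18 in the female pair and 7.02 and 6.45 in the male pair. Of the 72 subunits, 46 (63.9%) were lower with thyroxine in the female pair and higher in the male pair, against 32.7% of all tested genes. The low array was the thyroxine one in the female pair and the control one in the male pair, and these are the 2 arrays with the lowest means named above. The part of the array itself in these differences was not tested.

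**Figure D2:**
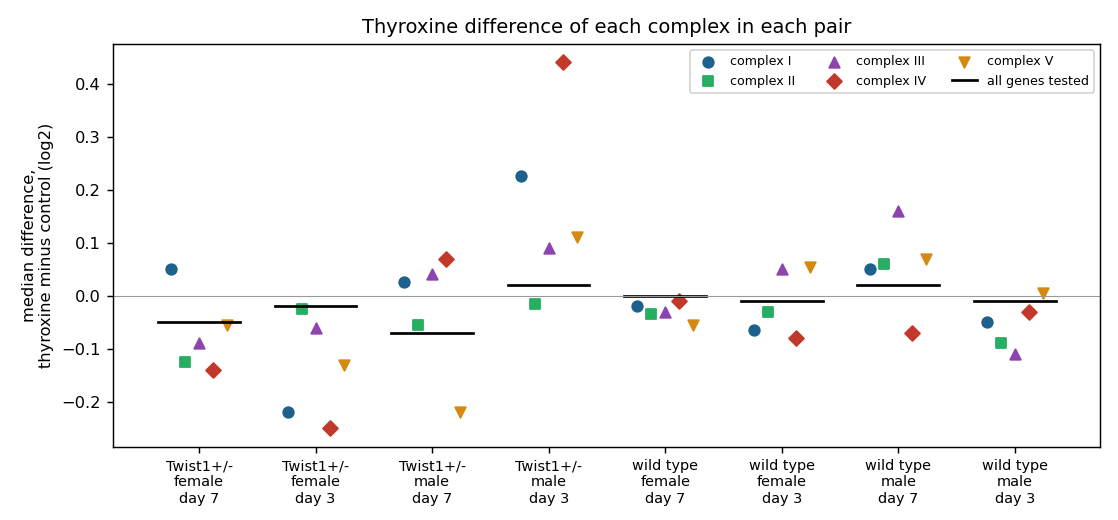
Median thyroxine minus control difference (log2, y axis) of the tested genes of each complex in each of the 8 pairs of arrays (x axis), with a black bar for the median of all tested genes. Both Twist1+/- day 3 pairs stand apart in opposite directions, with complex IV at -0.25 for female and 0.44 for male cells, and the bars of all genes stay between -0.07 and 0.02.

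Split by genotype and day, Atp5d and Ndufa11 were the subunits that passed for thyroxine. In wild-type cells 0 of 72 passed (0.0149% of all tested genes) and at day 3 0 of 72 passed (0% of all tested genes), with 2 and 0 subunits under 0.05 before adjustment (5.59% and 3.05% of all tested genes). Among Twist1+/- pairs 1 of 72 passed (0.201% of all tested genes), which was Atp5d at 1.43 ± 0.174 (adjusted p 0.00471, higher in 2 of 4 pairs). At day 7, 2 of 72 passed (0.156% of all tested genes), Atp5d at 1.34 ± 0.174 (adjusted p 0.00635, higher in 3 of 4 pairs) and Ndufa11 at 0.50 ± 0.082 (adjusted p 0.0244, higher in 4 of 4 pairs). In Twist1+/- cells at day 7 alone, 2 of 72 passed (0.766% of all tested genes), with Atp5d at 3.12 ± 0.246 (adjusted p 2.75e-05) and Ndufa11 at 0.86 ± 0.115 (adjusted p 0.00328), both higher in 2 of 2 pairs. The thyroxine difference itself, Twist1+/- minus wild type, passed for 1 of 72 (0.0595% of all tested genes), Atp5d, at 1.59 ± 0.246 (adjusted p 0.0362). It differed between day 7 and day 3 for 0 of 72 (0.00743% of all tested genes). The calls of Atp5d in Twist1+/- cells, at day 7 and between genotypes ended without the Twist1+/- female pair of day 7 (adjusted p 0.0821, 0.118 and 0.202), that at day 7 also without the wild-type female pair of day 7 (0.0524) and that between genotypes without any 1 of 4 further pairs (0.062 to 0.282). Its estimates turned to -0.26, -0.44 and -0.38 without the Twist1+/- arrays of day 7. The day 7 call of Ndufa11 ended without any 1 of the 6 pairs other than the Twist1+/- pairs of day 3 (adjusted p 0.0626 to 0.385), and its call in Twist1+/- cells at day 7 without either of the pairs behind it (adjusted p 0.0694 and 0.225).

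Both genes were low on the 2 Twist1+/- control arrays of day 7. Atp5d stood at 9.71 and 9.65 with thyroxine on the Twist1+/- female and male arrays of day 7, against 6.13 and 6.99 in control medium. On the 14 arrays other than those 2 controls it lay between 8.62 and 9.78 (mean 9.40 ± 0.33 SD). Ndufa11 stood at 9.13 and 9.0 with thyroxine on the same female and male arrays, against 8.37 and 8.04 in control medium, and at 8.73 to 9.31 on the 14 others. Neither control value of either gene fell in the range of the other arrays.

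Each of these genes had a dimmer probe set that did not follow. The dimmer probe set of Atp5d read 8.63 and 8.40 on the 2 Twist1+/- control arrays of day 7, inside the 8.29 to 8.85 of the 14 others. Its thyroxine differences in the Twist1+/- pairs of day 7 were 0.14 and 0.44 (mean 0.29, adjusted p 0.38). The dimmer probe set of Ndufa11 read 4.67 and 4.24 on those control arrays, inside the 3.67 to 5.14 of the others, and differed by -0.11 and 0.33 with thyroxine (mean 0.11, adjusted p 0.811). For Ndufa8 and Ndufa12, accessory subunits of complex I, and Atp5e, the epsilon subunit of the F1 stalk, the dimmer probe set was the low one. The dimmer probe set of Ndufa8 read 5.44 and 5.06 there, against 6.64 to 7.45 elsewhere, that of Ndufa12 4.10 and 3.65, against 4.76 to 5.62, and that of Atp5e 5.57 on both, against 5.64 to 6.61. The brighter probe sets read 9.04 and 8.79 for Ndufa8 (8.86 to 9.35 elsewhere), 7.40 and 7.61 for Ndufa12 (6.98 to 7.63) and 7.49 and 7.19 for Atp5e (6.89 to 7.44). In 5 of the 9 subunits with a pair of probe sets, 1 of the pair thus lay below all other arrays on both of these arrays and the other did not, and these 5 were picked after their values were seen. The share among all genes with several probe sets is not given here, so whether 5 of 9 is unusual is not known.

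**Figure D3:**
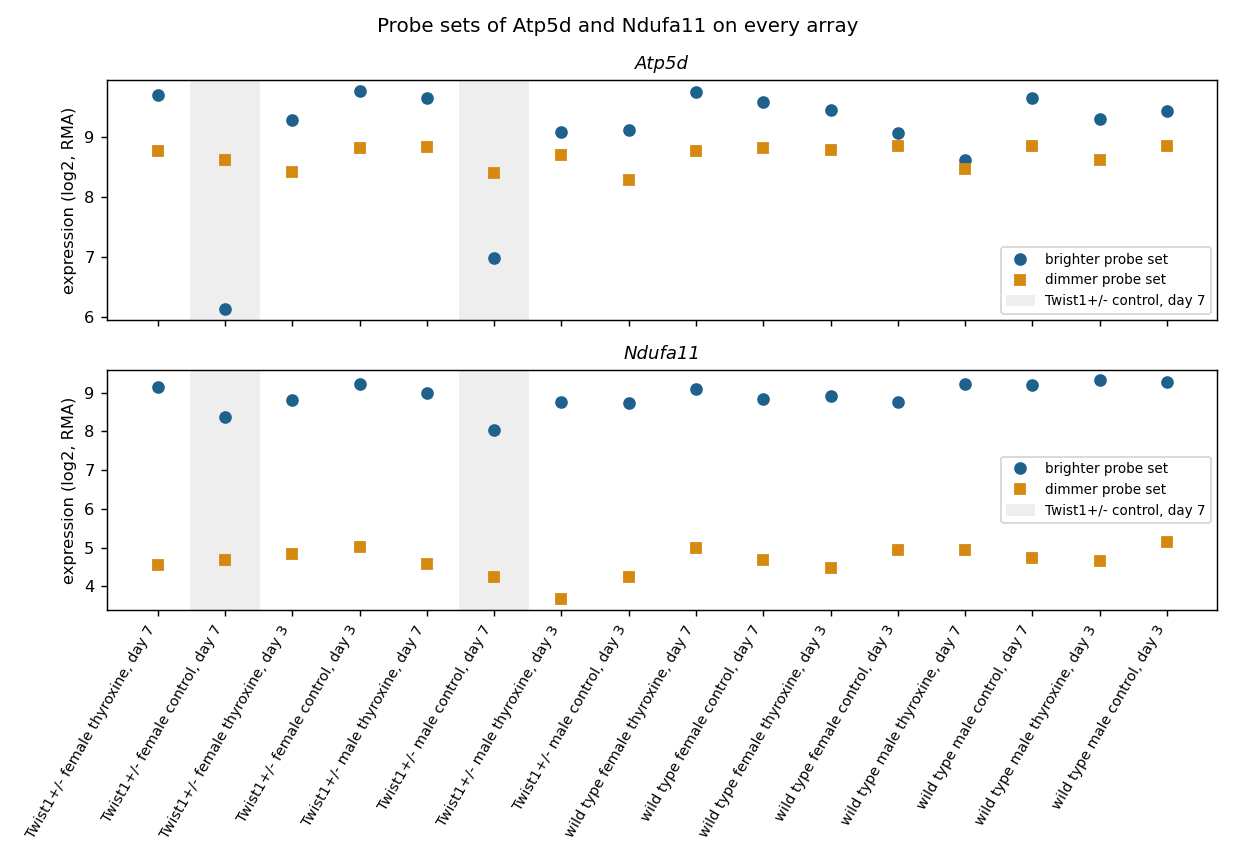
Log2 level of the brighter and the dimmer probe set of Atp5d and of Ndufa11 on the 16 arrays (x axis), with the 2 Twist1+/- control arrays of day 7 on a grey ground. The brighter probe set of Atp5d drops to 6.13 and 6.99 on those arrays and that of Ndufa11 to 8.37 and 8.04, while the dimmer probe sets stay in the range of the other arrays.

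On these 2 arrays, 3 of 72 subunits (4.17%) lay below the range of the 14 others on both, against 1.56% of all tested genes, namely Atp5d, Ndufa11 and Ndufb10 (6.03 and 6.25, against 6.30 to 6.73). A further 6 (8.33%) lay above it on both, against 3.95% of all tested genes, namely Atp5pb, Ndufa9, Ndufa3, Uqcrh, Ndufa1 and Atp5mpl. The part of these arrays in the Atp5d and Ndufa11 differences was not tested.

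No gene of the lists around the respiratory chain passed for thyroxine either. Of the 10 tested transcripts from mitochondrial DNA 0 passed (median -0.02, 8 of 10 lower), and of 42 tested assembly factors, which build the complexes, 0 passed (median -0.06, 32 of 42 lower). Of all 13453 tested genes 7880 were lower. Of 22 tested regulators 0 passed (median 0.004), with 0.00 for Nrf1, 0.06 for Esrra, 0.01 for Tfam, -0.02 for Ppargc1b, 0.11 for Thra and 0.14 for Thrb, the last pair being thyroid hormone receptors. The coactivator gene Ppargc1a was below the filter, at 2.51 to 3.19 on the 16 arrays, as was Ucp1, the uncoupling protein of brown fat, at 2.27 to 3.20. Of the 17 tested genes of the tricarboxylic acid cycle 0 passed (median -0.02). Of the 20 tested genes of glycolysis 0 passed (median -0.05, 16 of 20 lower), although Pfkfb3, which makes an activator of phosphofructokinase, was higher in 8 of 8 pairs (0.37, adjusted p 0.183) and the glucose transporter gene Slc2a1 was lower in 8 of 8 (-0.18, adjusted p 0.628).

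The subunits had no common direction with time in culture, with 39 of 72 higher at day 7 and 33 lower. Between day 7 and day 3, 7 of 72 subunits passed (9.72%), where 18.5% of all tested genes did (limma, culture as a random block). Of the 7, 2 rose, Ndufa4l2 and Cox6b2 (9.84% of all tested genes rose), and 5 fell, Ndufs1, Atp5b, Atp5d, Ndufb10 and Ndufa5 (8.69% of all tested genes fell). The median of the 72 was 0.009 and that of all tested genes -0.02. The 95% interval lay within 0.5 of 0 for 68 of 72, and Atp5d, Cox6a2, Cox6b2 and Ndufa4l2 were the exceptions.

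Ndufa4l2, a paralog of Ndufa4 that is known to be induced by hypoxia and to lower the activity of complex I, rose most. Its level in Twist1+/- female cells was 8.12 with thyroxine and 7.40 in control medium at day 7, against 5.53 and 6.08 at day 3. In Twist1+/- male cells it was 9.36 and 7.83 at day 7, against 7.01 and 6.86 at day 3, and in wild-type female cells 9.33 and 9.22, against 7.29 and 7.55. In wild-type male cells it was 5.41 and 6.61 at day 7, against 5.31 and 5.33 at day 3. All 8 comparisons of the same culture and medium were thus higher at day 7, by 0.10 in the wild-type male thyroxine cells and by 0.97 to 2.59 in the rest, while the ranges of the days overlapped (5.41 to 9.36 at day 7, 5.31 to 7.55 at day 3). The difference was 1.54 ± 0.413, a 2.91-fold rise (adjusted p 0.0216). Within genotypes it was 1.81 ± 0.584 in Twist1+/- cells (adjusted p 0.0578) and 1.27 ± 0.584 in wild-type cells (adjusted p 0.303).

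Cox6b2, an isoform of Cox6b1 known from testis, rose by 0.43 ± 0.119 (adjusted p 0.0242), with 8 of 8 comparisons higher. Its day 7 levels had a lowest, median and highest value of 4.62, 5.33 and 5.94, against 4.51, 4.81 and 5.16 at day 3. The wild-type male culture held the smallest increases, with 4.62 and 4.80 (thyroxine, control) at day 7 and 4.51 and 4.76 at day 3.

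The subunits that fell belong to the catalytic or structural core of complexes I and V and to the accessory set of complex I. Ndufs1, the largest iron-sulfur subunit of complex I, had 6.65, 6.90 and 7.25 as its lowest, median and highest level at day 7, against 6.90, 7.22 and 7.38 at day 3 (-0.28 ± 0.072, adjusted p 0.0191). Atp5b, the catalytic beta subunit of ATP synthase, had 11.10, 11.24 and 11.54 at day 7, against 11.44, 11.49 and 11.55 at day 3 (-0.23 ± 0.063, adjusted p 0.0269). Both were lower at day 7 in 7 of 8 comparisons, and the exception for both was the wild-type male culture with thyroxine, at 7.03 against 6.90 for Ndufs1 and 11.54 against 11.47 for Atp5b. Ndufb10, an accessory subunit of the membrane arm, had 6.03, 6.33 and 6.43 at day 7, against 6.33, 6.48 and 6.73 at day 3 (-0.20 ± 0.062, adjusted p 0.0416), with its lowest values, 6.03 and 6.25, on the Twist1+/- control arrays of day 7. Ndufa5, an accessory subunit of the matrix arm, had 5.65, 6.10 and 6.31 at day 7, against 6.05, 6.22 and 6.75 at day 3 (-0.24 ± 0.075, adjusted p 0.0457). Each was lower in 7 of 8 comparisons, and the ranges of the days overlapped for all 4 genes. The fall of Atp5d (-0.56 ± 0.168, adjusted p 0.0374) was of another kind, since 5 of 8 comparisons were higher at day 7. Without the Twist1+/- control arrays of day 7 it turned to 0.22 (adjusted p 0.433), and its dimmer probe set differed by 0.02 (adjusted p 0.881).

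**Figure D4:**
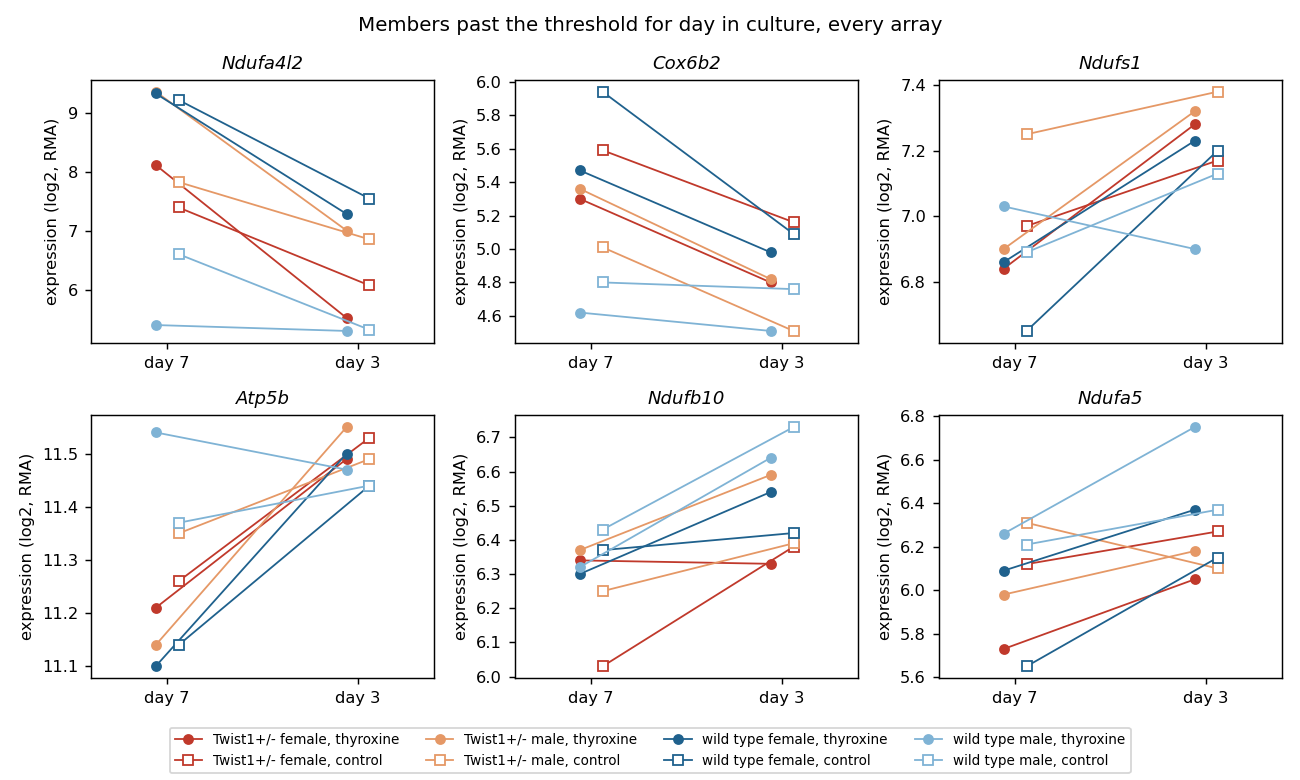
Log2 levels of Ndufa4l2, Cox6b2, Ndufs1, Atp5b, Ndufb10 and Ndufa5 on every array, day 7 at the left and day 3 at the right of each panel, with filled circles for thyroxine, open squares for control medium and lines joining the same culture and medium. Lines for Ndufa4l2 and Cox6b2 all lie higher at day 7, and 7 of 8 lie lower at day 7 for each of the 4 other genes.

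The number of calls depended on single cultures and arrays. Without the Twist1+/- control arrays of day 7, 2 subunits passed, Ndufs1 and Ndufa5 (-0.32 each), while Ndufa4l2 was at 1.67 (adjusted p 0.0678), Atp5b at -0.23 (adjusted p 0.0868), Cox6b2 at 0.42 (adjusted p 0.0893) and Ndufb10 at -0.19 (adjusted p 0.144). Over 16 alternatives of the day comparison, Ndufb10 passed in 7 (adjusted p 0.0224 to 0.227). Without the Twist1+/- female, Twist1+/- male and wild-type female culture in turn, 2, 3 and 2 subunits passed, and 7 did without the wild-type male culture. With control arrays alone 1 passed and with thyroxine arrays alone 0. The share of all tested genes that passed under these settings is not given here, so the changes cannot be read as particular to the subunits. In Twist1+/- cells alone 2 of 72 passed (14.6% of all tested genes), Atp5d (-1.20 ± 0.237, adjusted p 0.00567) and Ndufa3 (0.46 ± 0.133, adjusted p 0.038, higher in 4 of 4 comparisons). Ndufa3 had 10.43 and 10.48 (thyroxine, control) in female and 10.36 and 10.63 in male cells at day 7, against 9.91 and 10.24 and 10.33 and 9.60 at day 3, where the 2 low arrays named above hold its lowest values. In wild-type cells alone 0 of 72 passed (0.111% of all tested genes), with 6 under 0.05 before adjustment (16.4% of all tested genes), and 4 passed without the wild-type male culture. The day difference did not pass as different between the genotypes for any subunit (0 of 72, 0% of all tested genes), with 9 under 0.05 before adjustment (8.73% of all tested genes).

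By complex, the day medians were 0.01 in complex I (18 higher, 14 lower), -0.004 in complex II (2 and 2), -0.06 in complex III (1 and 6), 0.06 in complex IV (11 and 2) and -0.06 in complex V (7 and 9). In complex IV, Twist1+/- cells alone had 11 higher and 2 lower (median 0.075), and wild-type cells alone 5 higher and 8 lower (median -0.015). Of all tested genes 46.5% and 45.4% were higher. The complex IV median was 0.16 in Twist1+/- female thyroxine and 0.36 in Twist1+/- male control cells, whose day 3 arrays are the 2 low ones named above. It was 0.14 in Twist1+/- female control and -0.05 in Twist1+/- male thyroxine cells. The part of the low arrays in this was not tested. The subunits with the smallest p that did not pass were Ndufa4 (-0.23 ± 0.086, adjusted p 0.0808) and Ndufa3 (0.25 ± 0.094, adjusted p 0.0875). Sdhc differed by 0.19 and Sdha by -0.11, Uqcrh by 0.11 and Uqcrfs1 by -0.10, Cox7a1 by 0.21 and Cox5a by -0.10, and Atp5g2 by 0.09 and Atp5l by -0.20, with adjusted p between 0.109 and 0.396. Apart from Ndufa4l2 and Cox6b2, which passed, Ndufc1 was higher and Cox7a2 lower in 8 of 8 comparisons, which makes 4 of 72 with the same sign throughout (11.8% of all tested genes), and neither of these passed (0.18, adjusted p 0.195, and -0.16, adjusted p 0.174).

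Some subunits have a common isoform and one restricted to certain tissues or conditions. The restricted gene had the larger day 7 minus day 3 value in each of the 5 pairs with both above the filter. Cox6b2 differed by 0.43 and Cox6b1, the common isoform, by 0.04, and Ndufa4l2 by 1.54 and Ndufa4 by -0.23. Cox7a1, known from muscle, differed by 0.21 and the common Cox7a2 by -0.16, and Cox6a2, known from muscle and heart, by 0.21 and the common Cox6a1 by 0.06. Cox4i2 and Cox4i1 differed by 0.09 and 0.01, although Cox4i2 was higher in only 3 comparisons and lower in 4. The pair of Cox8b and Cox8a went the other way. Cox8b, below the filter, averaged 3.43 at day 7 and 3.56 at day 3, while the common Cox8a differed by 0.12. Only Ndufa4l2 and Cox6b2 passed, and the difference between isoforms was not tested. With thyroxine the 5 pairs above the filter differed by -0.13 and 0.02 (Cox6b2, Cox6b1), 0.06 and 0.08 (Ndufa4l2, Ndufa4), 0.03 and -0.04 (Cox7a1, Cox7a2), 0.03 and 0.09 (Cox6a2, Cox6a1) and 0.18 and -0.01 (Cox4i2, Cox4i1), and 0 of these passed.

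Around the respiratory chain, the glycolysis, tricarboxylic acid cycle and regulator lists each held genes that passed between the days, where 18.5% of all tested genes passed (9.84% higher and 8.69% lower at day 7). Passed or not, 45.2% of all tested genes were higher at day 7. Of 20 tested glycolysis genes 6 rose and 0 fell by day 7 (16 higher, median 0.08), among them the aldolase gene Aldoc (0.59, adjusted p 0.0014), Pfkfb3 (0.53, adjusted p 0.00567), the lactate exporter gene Slc16a3 (0.49, adjusted p 0.00751) and Pdk1, a kinase that restrains pyruvate dehydrogenase (0.48, adjusted p 0.00968). Of 17 tested genes of the tricarboxylic acid cycle 3 fell and 0 rose (14 lower, median -0.14), which were Idh3a (-0.32, adjusted p 0.0139), Mdh2 (-0.25, adjusted p 0.031) and Dlst (-0.22, adjusted p 0.0347). Of 22 tested regulators 4 fell, the host cell factor gene Hcfc1 (-0.29, adjusted p 0.00542), the PGC-1-related coactivator gene Pprc1 (-0.23, adjusted p 0.0254), the mitochondrial RNA polymerase gene Polrmt (-0.31, adjusted p 0.0264) and Gabpa (-0.18, adjusted p 0.0447), while Nrf1 (-0.10), Tfam (-0.02) and Esrra (0.03) did not pass. Of 42 tested assembly factors 1 rose, the complex I factor Ndufaf3 (0.28, adjusted p 0.0193), and 1 fell, the complex I factor Acad9 (-0.24, adjusted p 0.0396). None of the 10 transcripts from mitochondrial DNA passed (median 0.008), nor did any of 9 tested chain proteins outside the symbol rule (median -0.11, 8 of 9 lower) or of 8 tested uncoupling proteins and carriers (median -0.14, 8 of 8 lower). The lists are small, genes of the tricarboxylic acid cycle and regulators passed about as often as all genes, and neither the lists nor the difference between them was tested.

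**Figure D5:**
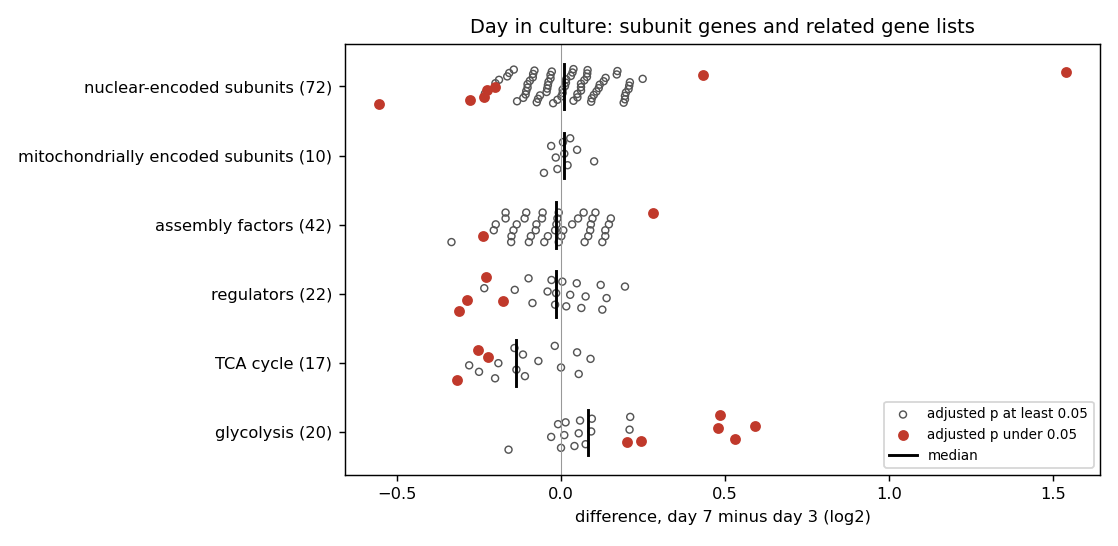
Day 7 minus day 3 log2 difference of each tested gene in 6 lists: the 72 subunits, 10 transcripts of mitochondrial DNA, 42 assembly factors, 22 regulators, 17 genes of the tricarboxylic acid cycle and 20 of glycolysis. The medians of the subunits, transcripts of mitochondrial DNA, assembly factors and regulators lie between -0.02 and 0.01, that of the tricarboxylic acid cycle at -0.14 and that of glycolysis at 0.08.

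Markers of other cell types moved with time as well. Of the 14 macrophage and osteoclast markers 11 rose by day 7 (median 1.06), where 9.84% of all tested genes rose. The rest of that list, Ctsk (-0.185), Mmp9 (-0.39) and Acp5 (-0.117), was lower at day 7 and did not pass. Of the markers of dividing cells 5 of 7 fell, and of smooth muscle cells and pericytes 4 of 6, where 8.69% of all tested genes fell. The mean macrophage marker level was 8.75 at day 7 and 7.41 at day 3 in Twist1+/- female cells, 8.98 and 8.03 in Twist1+/- male cells and 8.90 and 7.77 in wild-type female cells, but 8.87 and 8.84 in wild-type male cells. The part of these cells in the subunit differences was not tested.

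Promoter sequence was set beside the calls for the members that RefSeq promoter windows covered, from 250 bases before to 50 bases after the transcript start (GRCm38.p6), which was 64 of 78 genes. On both strands, the NRF1 motif (GCGCA, any base, GCGC) was found in 15 of 64 (23.4%), against 7.17% of 17492 protein-coding genes, the ETS motif CCGGAAG in 17 (26.6%, against 12.9%) and the YY1 motif AANATGGC in 16 (25%, against 7.46%). The motif GGGCGG of SP1-type factors was found in 27 (42.2%, against 49.2%), the motif TCAAGGTCA of oestrogen-related receptors in 2, Sdhd and Atp5g3 (3.12%, against 0.377%), and the thyroid hormone receptor repeat (AGGTCA, a gap of 4 bases, AGGTCA) in 0, as in all but 4 of 27025 genes. In complex I, the YY1 letters were found in 11 of 29 genes (37.9%), the NRF1 letters in 5 (17.2%) and the ETS letters in 4 (13.8%). In complex V, the NRF1 and the ETS letters were found in 6 of 15 genes each (40%) and the YY1 letters in 4 (26.7%). Complex IV held the NRF1 and the YY1 letters in 1 of 13 genes each (7.69%), near the protein-coding shares, and the ETS letters in 3 (23.1%). Complexes II and III had only 3 and 4 genes searched. A match describes letters and is not a bound site. The 4 windows below belong to subunits that passed by day, and Cox6a1 is added because it holds the NRF1, ETS and SP1 letters together. Each runs 5′ to 3′ along the gene, with 250 bases before the start and the first 30 from it, and has these motifs in capitals, none of which overlap here. Ndufa5 is shown by the upstream of its pair of windows, where the NRF1 letters end 17 bases before the start, and in Atp5b the YY1 letters begin 17 bases after it.
Cox6b2 (chr7:4753065-4753344, minus strand): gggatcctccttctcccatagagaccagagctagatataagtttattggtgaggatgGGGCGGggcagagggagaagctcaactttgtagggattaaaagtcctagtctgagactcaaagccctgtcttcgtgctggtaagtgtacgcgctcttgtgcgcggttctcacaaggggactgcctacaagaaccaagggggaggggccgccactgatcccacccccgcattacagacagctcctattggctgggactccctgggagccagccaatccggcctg
Atp5b (chr10:128083057-128083336, plus strand): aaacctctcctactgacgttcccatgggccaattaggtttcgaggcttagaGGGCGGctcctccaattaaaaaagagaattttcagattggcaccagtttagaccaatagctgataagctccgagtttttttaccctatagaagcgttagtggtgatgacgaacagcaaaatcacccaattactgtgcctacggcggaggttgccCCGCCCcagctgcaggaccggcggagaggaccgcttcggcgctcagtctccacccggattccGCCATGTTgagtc
Ndufb10 (chr17:24724394-24724673, minus strand): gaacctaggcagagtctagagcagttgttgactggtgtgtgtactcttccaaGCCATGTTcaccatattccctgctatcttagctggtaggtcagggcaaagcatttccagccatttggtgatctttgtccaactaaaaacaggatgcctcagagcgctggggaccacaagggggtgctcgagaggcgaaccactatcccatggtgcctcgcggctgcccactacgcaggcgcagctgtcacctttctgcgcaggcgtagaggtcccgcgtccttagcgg
Ndufa5 (chr6:24527661-24527940, minus strand): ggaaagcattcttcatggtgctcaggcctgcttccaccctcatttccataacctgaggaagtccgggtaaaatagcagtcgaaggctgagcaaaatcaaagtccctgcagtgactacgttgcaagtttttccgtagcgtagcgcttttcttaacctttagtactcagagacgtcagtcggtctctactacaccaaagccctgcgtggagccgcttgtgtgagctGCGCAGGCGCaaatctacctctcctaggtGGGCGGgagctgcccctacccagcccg
Cox6a1 (chr5:115348929-115349208, minus strand): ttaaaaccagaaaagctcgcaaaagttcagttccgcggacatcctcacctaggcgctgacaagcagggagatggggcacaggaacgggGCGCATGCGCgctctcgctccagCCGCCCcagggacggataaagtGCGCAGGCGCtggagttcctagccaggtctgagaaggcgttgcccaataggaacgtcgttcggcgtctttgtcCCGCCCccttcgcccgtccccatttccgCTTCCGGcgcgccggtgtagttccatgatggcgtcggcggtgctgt

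Ndufa4l2 and Ndufs1, which also passed by day, are named only. The windows of Atp5d held none of the 6 motifs.

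No subunit passed the test for genotype. Between Twist1+/- and wild-type cells 0 of 72 passed, as did 0% of all tested genes (limma), and 3 of 72 (4.17%) had an unadjusted p under 0.05, against 4.6% of all tested genes. At day 3 and at day 7 alone, 0 of 72 passed as well (0% of all tested genes at each day). The median was -0.008 (33 higher, 39 lower), that of all tested genes was 0.02, and the medians by complex were -0.04, 0.02, 0.002, -0.002 and -0.02 for complexes I to V. No subunit had the same sign in 8 of 8 comparisons, where 1.58% of all tested genes had, and the 95% interval lay within 0.5 of 0 for 66 of 72. Genotype rests on 2 cultures against 2, from which all 8 comparisons come, and no p-value or interval here measures the spread between animals.

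The subunits with the smallest p by genotype included Atp5d and Ndufa11, both low on the Twist1+/- control arrays of day 7. Atp5d differed by -0.64 ± 0.238 (adjusted p 0.937). Ndufa11 was at 8.75 ± 0.39 (8.04 to 9.21) in Twist1+/- and 9.07 ± 0.21 (8.75 to 9.31) in wild-type arrays (SD, n = 8 arrays each), a difference of -0.32 ± 0.124 (adjusted p 0.937). Ndufa8, an accessory subunit of complex I, was at 9.04 ± 0.17 in Twist1+/- and 9.27 ± 0.06 in wild-type arrays and was lower in 7 of 8 comparisons (-0.22 ± 0.090, adjusted p 0.937). Its lowest value, 8.79, was on the Twist1+/- male control array of day 7. The dimmer probe set of Ndufa8 differed by -0.49 on average (-2.2 to 0.6) and was higher in 3 of 8 comparisons. In the other complexes, Sdha differed by 0.08 and Sdhd by -0.05, Uqcrc2, a core protein of complex III, by 0.12 and Uqcrc1 by -0.07, Cox4i2 by 0.15 and Cox7b by -0.13, and Atp5l by 0.19 and Atp5g2 by -0.11, none of which passed. No gene of the lists around the chain passed either, with medians of -0.05 for the transcripts of mitochondrial DNA (9 of 10 lower) and 0.06 for glycolysis (17 of 20 higher). Of all tested genes 55.5% were higher. Of the mesenchymal and of the macrophage and osteoclast markers 0 passed between genotypes.

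Ndufa4l2 separated the cultures rather than the genotypes. It averaged 7.27 ± 1.20 in Twist1+/- and 7.01 ± 1.65 in wild-type arrays (SD, n = 8 arrays each), a difference of 0.27 ± 0.585 (adjusted p 0.965). In female cells it was lower in Twist1+/- at each medium and day, by -1.82 to -1.21, and in male cells it was higher, by 1.22 to 3.95. The wild-type female culture held the high levels (7.29 to 9.33) and the wild-type male culture the low ones (5.31 to 6.61), and both Twist1+/- cultures (5.53 to 9.36) lay between them at each day and medium, except the male one with thyroxine at day 7 (9.36, against 9.33). The genotype difference was -1.56 without either male culture and 2.1 without either female culture. With sex in the model, each of these fits sets 1 Twist1+/- culture against 1 wild-type culture of the same sex, so they restate the difference within each sex and hold no spread between cultures.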

How the data were processed

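The authors deposited log2 values for the probe sets of a whole-transcript Affymetrix array. Per the submitters' processing notes, they were made with RMA in Affymetrix Expression Console, with no version, build or annotation release named in the sources used here. Values ran from 0.57 to 14.05, with array medians of 3.73 to 3.86. Of 41345 probe sets, 23521 had 1 gene symbol in the platform annotation, 1814 had several and 16010 none. The brightest probe set of each of 22180 symbols was used, and the 13453 genes whose mean reached 3.905, the 40th percentile, were tested.

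Tests used limma 3.58.1 (lmFit, eBayes with an intensity trend, two-sided) and statmod 1.5.0 in R 4.3.3. Benjamini-Hochberg adjustment was over all 13453 genes, at 0.05. The fits were also run on simulated data, to check the size of planted changes. That noise was independent between genes, so shifts shared by the genes of an array were not covered. For thyroxine, the pair of arrays of a culture and day was a fixed block, because, per the labels, wells with and without thyroxine shared a plate and came from the same cells. Each genotype and day had its own thyroxine effect, and comparisons over several conditions average these effects. For day and genotype, the 8 group means and sex were fitted with the culture as a random block (within-culture correlation 0.202, set to 0 where a culture was left out). P-values measure the spread between these arrays, which may be technical, and the sources used here do not say whether wells were pooled. With 4 cultures, the number of arrays limits the precision. Members, lists and tests were chosen with earlier results of these data known, and no list was tested as a set. Named were the subunits past the threshold, in each complex those with the smallest p in each direction, isoform pairs, and up to 4 genes and stated regulators of each list. A planned naming of the brightest and dimmest subunits was not used, since levels of different probe sets are not comparable. Alternatives changed the intensity trend, the filter, the probe set, the scaling, the block and the arrays left out. Motifs were searched in RefSeq promoter windows of GRCm38.p6.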

Additional observations from a re-analysis of the deposited data

Results flagged for a closer look

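Among the 8 thyroxine minus control differences of Ndufa3, the Twist1+/- male pair of day 3 lay far above the rest, at 0.73, where the 7 others ran from -0.33 to 0.14. The complex IV median was highest in the same pair, at 0.44, where the 7 others ran from -0.25 to 0.07. The control array of that pair had the lowest mean over all subunits of the 16 arrays (7.644). Among the 8 Twist1+/- minus wild-type differences of Atp5b, that of the male thyroxine arrays of day 7 lay far below the rest, at -0.40 (11.14 in Twist1+/- and 11.54 in wild type), where the 7 others ran from -0.02 to 0.12. Of 42 series of 8 differences looked at in this way 3 stood out, and chance gives about 1 in 20.

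The thyroxine difference of Atp5d, Twist1+/- minus wild type, was 1.59 (limma, adjusted p 0.0362). The pair differences behind it were 3.58 and 2.66 in Twist1+/- cells at day 7, -0.49 and -0.03 in Twist1+/- cells at day 3, and between -1.04 and 0.37 in wild-type cells. With the dimmer probe set of the gene the difference was 0.32 (adjusted p 0.549).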

How the results depend on the processing

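The counts of subunits past the threshold are small, and many moved with the processing. Over all alternatives, medians stayed within the spread in 254 cases and moved in 1, counts stayed within 1.5 times in 178 and moved in 77, and values of single subunits kept their call in 722 cases, gained it in 18, lost it in 92 and turned in 11. The cause was not tested, except that fewer arrays leave less to test with. The share of all tested genes under each alternative is not given here, so the moves cannot be read as particular to the subunits.

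Thyroxine over all pairs gave 0 subunits, also with no pair block. In Twist1+/- cells (1 subunit) there were 0 without the intensity trend, 2 with the mean of probe sets, 0 without the Twist1+/- arrays of day 7 and 0 with no pair block. At day 7 (2 subunits) the same settings gave 0, 1, 0 and 0, and there was 1 without the wild-type male culture and 1 with the other probe set, an alternative chosen after seeing the data. In Twist1+/- cells at day 7 (2 subunits) there was 1 without the trend, 4 with the mean of probe sets and 1 with no pair block, and the median of -0.03 became 0.03 with arrays centred on their medians. The genotype difference of the thyroxine effect (1 subunit) gave 0 without the trend, without the filter, with the mean of probe sets, without the wild-type male culture, without the Twist1+/- arrays of day 7 and with no pair block. Leaving out each pair gave 0 to 2 over all pairs, 0 to 0 in wild type, 0 to 7 in Twist1+/-, 0 to 0 at day 3, 0 to 2 at day 7, 1 to 6 in Twist1+/- at day 7, 0 to 6 for the genotype and 0 to 2 for the day difference of the effect. The highs of 7, 6 and 6 came without the Twist1+/- female pair of day 3, and 6 in Twist1+/- at day 7 also without the male one.

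For day (7 subunits) there were 3 without the filter, 2 without the Twist1+/- control arrays of day 7, 1 with control arrays, 0 with thyroxine arrays and 8 with the culture as a fixed block. In wild-type cells (0) there were 4 without the wild-type male culture and 1 with the fixed block. In Twist1+/- cells (2) there was 1 without the trend, 1 without the filter, 4 with a stricter filter, 5 with centred arrays, 8 without the wild-type male culture, 0 without the Twist1+/- control arrays of day 7, 5 with the fixed block and 0 with thyroxine arrays. Genotype (0) gave 2 without the wild-type male culture, and 1 at day 3 and 2 at day 7, where control arrays alone gave 1. Leaving out each culture gave 2 to 7 for day, 0 to 4 in wild type, 0 to 8 in Twist1+/-, 0 to 1 for their difference, 0 to 8 for genotype, 0 to 3 at day 3 and 0 to 4 at day 7.

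Atp5d turned to -0.26 in Twist1+/- cells, -0.44 at day 7 and -0.38 between genotypes without the Twist1+/- arrays of day 7. By day it turned to 0.02 with the other probe set, 0.22 without the Twist1+/- control arrays of day 7 and 0.15 with thyroxine arrays, and in Twist1+/- cells alone to 0.10, 0.49 and 0.49. Ndufa4l2 (0.27 between genotypes, not past the threshold) was -1.56 without the wild-type male culture and 2.1 without either the Twist1+/- female or the wild-type female culture. Leaving out a culture leaves the genotype comparison with 1 culture against 1 of the same sex, so its counts and p-values then hold no spread between cultures.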
